A study of Mus musculus with 6 samples.

Results

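The NRF2 antioxidant genes are 10 protein-coding genes of the 21938 on mouse chromosomes 1 to 19, X and Y: Nfe2l2, Keap1, Gclc, Gclm, Slc7a11, Txnrd1, Srxn1, Hmox1, Nqo1 and Osgin1. They were taken by name, and their peaks were those within 2.5 kb of a transcription start site (TSS) or in the gene body with 20 kb on either side. H3K27ac, a histone acetylation found at active promoters and enhancers, was profiled by ChIP-seq in bulk retina of WT mice that were 3 months old at the first pressure elevation. In the 4xIOP group, 3 eyes underwent intraocular pressure of 30 mmHg for 1 h, 4 times, and the control group was 3 contralateral eyes without elevation, so that both groups came from mice with a stressed eye. All retinas were collected on day 2 after the 4th elevation. The shared protocol also describes dasatinib and vehicle injections, which no label assigns to these 6 samples.

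Each retina is represented by 1 deposited peak list. The 6 lists held 16195 to 36509 peaks, of which the most were in control 3 and the fewest in 4xIOP 3. Their mean background, recovered from fold and p, was 87.4 to 173 fragments per 10000 bp. In 4 lists (control 1 and 2, 4xIOP 1 and 2) the name carried by the list was that of the other group, and in 2 lists (control 3 and 4xIOP 3) it was that of the label. The samples were kept in their labelled groups, and the folds and coverage of the members are given list by list. The promoters of the rod genes Gnat1, Pde6b and Nrl were marked in every list. Of the other neural and glial markers, 1 of 4 amacrine and horizontal and 1 of 4 Müller glia promoters were marked in all 6 lists, and 0 of 3 cone, 0 of 3 bipolar and 0 of 4 ganglion cell promoters. Per list, 1, 0 and 3 of the bipolar promoters were marked in control and 0 in each 4xIOP list, and of the ganglion cell promoters 0, 0 and 1 were marked in control and 1, 0 and 1 in 4xIOP. The part of these cell types in the results was not tested. The marker promoters of pigment epithelium, microglia and macrophages, endothelium, blood, and lens and cornea were marked in no list. In bulk tissue a weaker mark per cell and fewer cells that carry it cannot be told apart.

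NRF2, encoded by Nfe2l2, is a transcription factor that is held at low levels by KEAP1, an adaptor that hands it to an ubiquitin ligase. Oxidants and electrophiles modify KEAP1, NRF2 then accumulates, pairs with small MAF proteins and binds antioxidant response elements. Its targets make and use glutathione (Gclc, Gclm, Slc7a11), keep thioredoxin and peroxiredoxin reduced (Txnrd1, Srxn1), break down heme (Hmox1) and reduce quinones (Nqo1). Glia and photoreceptors of the retina draw on these enzymes against oxidative stress.

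A promoter, here 2.5 kb on either side of any TSS, was counted as marked where a peak overlapped it. Of the 10 genes, 6 (Nfe2l2, Keap1, Gclc, Gclm, Txnrd1, Srxn1) were marked in all 6 lists, compared with 39.5% of all protein-coding genes. Gclc no longer was at a deposited −log10 q of at least 5, with 3.40 in control 1 and 4.48 in 4xIOP 2. The promoters of Slc7a11, Nqo1 and Osgin1 were marked in no list, as were 42.4% of all genes. Hmox1 alone was marked in some lists, namely in all 3 control lists and in 4xIOP 2. Accordingly, 7 promoters were marked in each of the control lists and 6, 7 and 6 in 4xIOP lists 1, 2 and 3 (7 ± 0 in control, 6.33 ± 0.577 in 4xIOP, SD, n = 3). For comparison, 1.42% of all genes had a promoter peak in each control list and in at most 1 4xIOP list, and 0.173% had the reverse arrangement. The share of all genes that was marked was 46.2 to 56.9% in control and 44.6 to 47.4% in 4xIOP, and the groups overlapped.

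**Figure D1:**
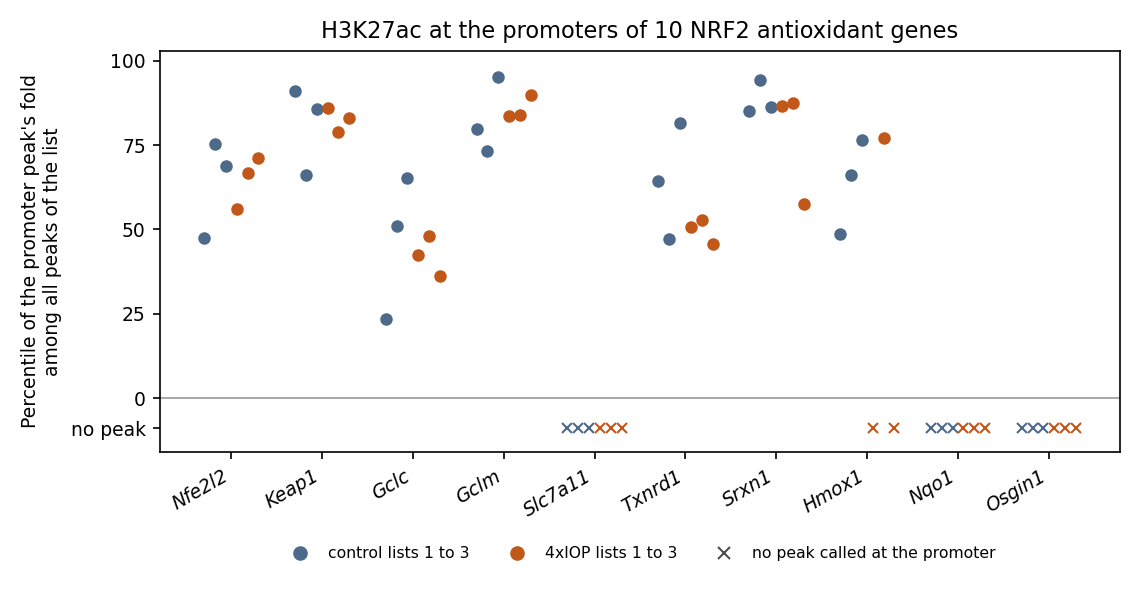
Percentile of each promoter's strongest peak among all peaks of its list, by the deposited fold over local background (vertical axis, %), for the 10 genes (horizontal axis). Each point is 1 list, blue for control and orange for 4xIOP, and crosses are lists with no promoter peak: Hmox1 lacked one in 4xIOP 1 and 3, and Slc7a11, Nqo1 and Osgin1 in all 6 lists.

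Nfe2l2 (chromosome 2, 75675513-75704641, minus strand, GRCm38) had 2 marked regions in all 6 lists, on either side of its TSS. The stronger region (75703535-75704513) had its highest summit in the first part of the gene, in an intron. Its fold over local background was 4.00, 4.98 and 5.03 in control lists 1, 2 and 3, and 4.32, 4.61 and 5.20 in 4xIOP lists 1, 2 and 3. The lowest value was in a control list and the highest in a 4xIOP list, and the groups overlapped. The weaker region (75704677-75705481) lay over an exon of the divergent transcript E030042O20Rik, and its fold was 2.83, 3.18 and 4.83 in control and 4.04, 3.40 and 3.87 in 4xIOP. The flank downstream of the gene held 2 more regions, both at the promoter of Hnrnpa3, in all 6 lists.

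Keap1 (chromosome 9, 21229730-21239361, minus strand) was among the more strongly marked of the 10. Its fold was 6.72, 4.50 and 7.02 in control lists 1, 2 and 3 and 6.02, 5.27 and 5.93 in 4xIOP. All 3 4xIOP values lay within the range of the control values. The same peaks stood at percentiles 90.9, 66.0 and 85.9 of their lists in control and 85.9, 79.1 and 83.1 in 4xIOP. The highest summit of the region (21237880-21239485) was in an untranslated exon. Downstream of the gene, an intergenic region at 14.2 kb from the first TSS was called in 1 control and 2 4xIOP lists, and another at 18.3 kb in 1 list of each group. All of these flanking peaks in the control group came from control 3, the longest list.

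The subunits of glutamate-cysteine ligase, which carries out the first step of glutathione synthesis, were both marked in all lists but at different strength. Gclc, the catalytic subunit (chromosome 9, 77754535-77794485, plus strand), had the weakest promoter of the 6 in rank. Its fold was 3.25, 3.89 and 4.77 in control and 3.87, 3.94 and 3.89 in 4xIOP. The summits held 18, 27 and 40 fragments in control and 21, 17 and 21 in 4xIOP, so the single control 3 list was above the others. Gclm, the modifier subunit (chromosome 3, 122245557-122270732, plus strand), was marked with a fold of 5.57, 4.85 and 9.17 in the control lists. In the 4xIOP lists it was 5.86, 5.63 and 6.55, within the control range. A region in a coding exon of Gclm, 17.2 kb from the TSS, was called in control 3 and 4xIOP 2 only, and the promoter of the neighbour Dnttip2 in all 6 lists. Further on, in introns of Dnttip2, a region at 32.2 kb (122276941-122278044) was called in all 3 control lists at folds of 3.25, 2.84 and 2.99 and in 4xIOP 3 at 4.01. The next, at 32.8 kb, was called in 2 control lists and 1 4xIOP list, and the last, at 33.5 kb, in control 2 alone.

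Gclc also had 2 intergenic regions upstream. The first (77750177-77750787, highest summit at -3.88 kb) was called in all 3 control lists, with folds of 3.04, 3.89 and 4.08, and in 4xIOP 3 with 3.98. Of all 39942 consensus regions, which are the merged peaks of the 6 lists, 3.79% were called in all 3 control lists and at most 1 4xIOP list and 0.285% in the reverse arrangement. The second (77750947-77751413, highest summit at -3.41 kb) was called in control 1 and 3 and in 4xIOP 1 and 3, at folds of 5.31, 5.51, 4.92 and 3.79. The list 4xIOP 2 had neither region and control 2 only the first. By the names that the lists carry, the first region, like the Gclm region at 32.2 kb, was in all 3 lists named for 4xIOP and in 1 named for control, so the direction of both turns with the labels. Between 77750715 and 77750783 the first region holds the element TGACTCAGC on the other strand (GCTGAGTCA). This element is a form of the antioxidant response element that also contains the AP-1 site TGACTCA. It is given in capitals because it sits near the edge of the peak: the peaks of control 1, 2 and 3 reached over it and the narrower peak of 4xIOP 3 did not.
Gclc upstream, chr9:77750715-77750783, plus strand: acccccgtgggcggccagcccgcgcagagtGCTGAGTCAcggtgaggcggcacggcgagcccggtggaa

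Slc7a11 (chromosome 3, 49892526-50443614, minus strand) encodes the cystine carrier of system xc-, which supplies cysteine for glutathione. Its promoter was unmarked in all 6 lists. The whole locus held a single peak, in an intron 37.8 kb from the TSS, in 4xIOP 3 alone, with 14 fragments at the summit. Its fold was 4.21, at percentile 46.4 of that list.

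Txnrd1 (chromosome 10, 82833951-82897712, plus strand), the cytosolic thioredoxin reductase, was marked at 2 internal start sites and not at its first TSS. The highest summits were at 25.4 and 26.6 kb from the first TSS, in an intron and in an untranslated exon. At the first of these regions (82858878-82859793) the fold was 4.67, 3.78 and 6.36 in control and 3.66, 3.96 and 4.18 in 4xIOP. At the second (82860189-82860912) it was 4.13, 3.05 and 4.59 in control and 4.14, 4.09 and 4.19 in 4xIOP. The first region was thus the stronger in every control list and the second in every 4xIOP list, an arrangement found at 8 of 1099 promoters with at least 2 regions in all lists (0.728%). This comparison was made after the values had been seen. By the names that the lists carry it is not found at Txnrd1. In 4xIOP 3 the gap was 4.184 against 4.189, and in summit fragments the order there was the other way, with 26 at the first region and 25 at the second. The limma differences of the regions were -0.31 ± 0.31 and 0.43 ± 0.31 normal-score units (SE), with adjusted p = 0.999894 for both.

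Srxn1 (chromosome 2, 152105516-152111376, plus strand), the sulfiredoxin that restores overoxidised peroxiredoxins, had a promoter peak with its highest summit 65 bp into the gene, in an untranslated exon. Its fold was 6.01, 6.96 and 7.11 in control and 6.10, 5.96 and 4.59 in 4xIOP. The lowest value was that of 4xIOP 3, at percentile 57.6 of its list, while the other 5 lists were at percentiles 85.1 to 94.4. A peak at -11.7 kb, in a coding exon of Scrt2, was called in control 3 alone.

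Hmox1 (chromosome 8, 75093621-75100589, plus strand), the inducible heme oxygenase, was the member with the largest difference between groups in promoter coverage. Peaks covered 473, 520 and 746 bp of its promoter in control lists 1, 2 and 3, and 0, 317 and 0 bp in 4xIOP lists 1, 2 and 3. Every 4xIOP list was thus below every control list. The strongest promoter peak held 24, 30 and 32 fragments in control and 23 in 4xIOP 2. The peaks formed 2 regions. The upstream one (75092868-75093424, intergenic, highest summit at -0.637 kb) was called in all 3 control lists, at folds of 4.04, 3.38 and 3.50, and in no 4xIOP list, an arrangement shared by 1.05% of all consensus regions. The one at the start of the gene (75093590-75094062, highest summit in an intron) was called in control 2 and 3 at folds of 4.51 and 5.76 and in 4xIOP 2 at 5.14. The neighbouring promoter of Mcm5 was marked in all 6 lists.

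Of the lists without a Hmox1 promoter peak, 4xIOP 1 held 20338 peaks and 4xIOP 3 held 16195, and control 2, with both regions, held 19913. With every list cut to its top 16195 peaks, the log2 coverage difference of Hmox1 was -1.09 (adjusted p = 0.975, limma). With the full lists it was -1.23 (adjusted p = 0.708, limma). The part of list length in this difference was not tested further. The fewest summit fragments of a peak at the mean background were 10 in 4xIOP 1 and in 4xIOP 3. The local background at the marked Hmox1 peaks was 3.67 to 5.87 fragments, above the 2.12 to 3.38 of the same lists' means. In these lists a peak there thus needed more fragments than at the mean background. The local background in 4xIOP 1 and 3, which had no peak there, is not known, and the part of detection was not tested. Between only the 2 lists whose own name is that of their label, Hmox1 was marked in control 3 and unmarked in 4xIOP 3. Taken by the names that the lists carry, the promoter was marked in 2 of 3 lists of either name, with 473, 520 and 0 bp covered in those named for 4xIOP and 746, 0 and 317 bp in those named for control, so the difference between groups rests on the labels. The upstream region was then in 2 lists named for 4xIOP and 1 named for control.

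Further upstream, an intergenic region of Hmox1 (75083608-75084081) was called in control 1 and 3 and in 4xIOP 2, with 21, 17 and 15 summit fragments. It holds 3 copies of GCTGAGTCA, at -9672, -9644 and -9615 bp from the TSS. In windows of 600 bp centred on each consensus region, at least 1 copy of this element on either strand was found in 384 of 39942 regions (0.961%), and at least 3 copies in 1, which is the Hmox1 region. The share with 3 or more copies of the looser core TGACNNNGC, which includes the former, was 0.340%. The whole peak of 4xIOP 2 is shown because it covered all 3 copies (capitals), whereas the peak of control 3 covered 1 and that of control 1 ended before them.
Hmox1 upstream peak, chr8:75083799-75084081, plus strand: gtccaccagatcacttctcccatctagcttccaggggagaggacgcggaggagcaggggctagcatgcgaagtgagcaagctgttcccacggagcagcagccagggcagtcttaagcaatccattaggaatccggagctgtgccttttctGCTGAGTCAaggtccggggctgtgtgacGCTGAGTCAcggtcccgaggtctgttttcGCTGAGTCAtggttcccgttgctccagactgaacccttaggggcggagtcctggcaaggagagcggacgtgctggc

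**Figure D2:**
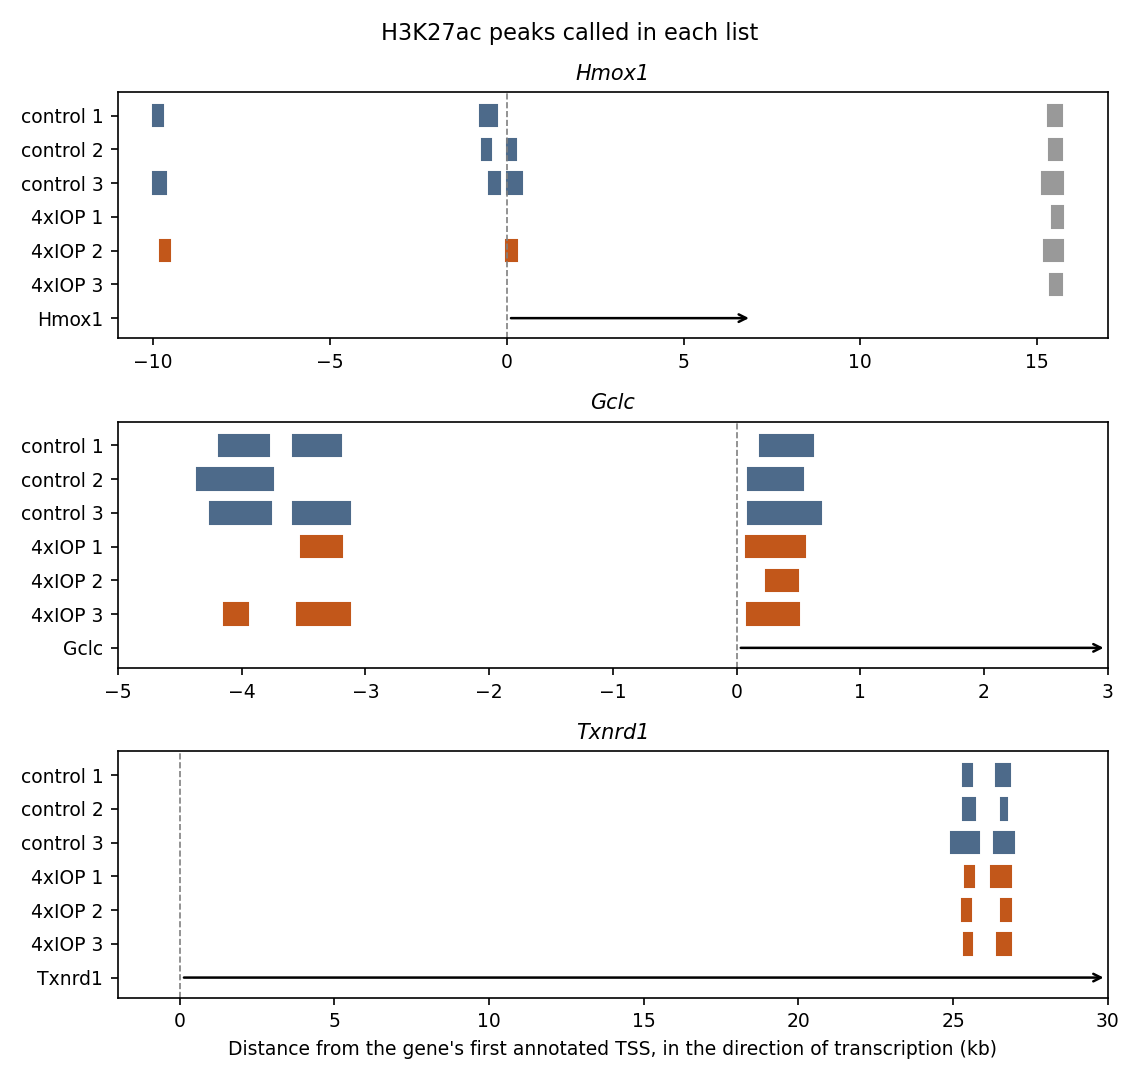
Peaks called in each of the 6 lists (rows) at Hmox1, Gclc and Txnrd1, by distance from the first annotated TSS in the direction of transcription (horizontal axis, kb; each panel has its own scale). Bars are the strongest peak of a list in each region, blue for control, orange for 4xIOP and grey for the promoter of Mcm5, and the arrow is the gene body, which runs past the edge for Gclc and Txnrd1; the region upstream of the Hmox1 TSS at -0.637 kb appears in the 3 control rows only.

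Nqo1 (chromosome 8, 107388225-107403206, minus strand), the quinone reductase often used as a readout of NRF2, had no peak anywhere in its gene body or the 20 kb on either side, in any list. Osgin1 (chromosome 8, 119434124-119446256, plus strand), an oxidative-stress-induced growth inhibitor, had no promoter peak. Its flanks held 3 weak regions, 1 in control 1 at -11.6 kb and 2 in control 3, with 11 to 14 summit fragments, and none in 4xIOP.

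The marked and unmarked members were then compared by promoter sequence. RefSeq promoters (GRCm38.p6, 250 bases before to 50 after a start) were at hand for 8 of the 10 genes, not for Hmox1 and Gclc. CpG observed over expected, which is 1 where CG occurs as often as the C and G content allows, was 1.01 at Gclm, 0.838 at Srxn1, 0.610 at Keap1 and 0.544 at Nfe2l2. At Txnrd1 it was 0.963 and 0.698 at the marked internal starts and 0.153 at the unmarked first start. At the unmarked genes it was 0.271 (Slc7a11), 0.249 (Nqo1) and 0.238 (Osgin1). All marked starts were thus above all unmarked ones. Across 16522 genes, 4.68% of those under 0.3 were marked in all 6 lists, 25.2% of those from 0.3 to 0.6 and 67.1% of those at 0.6 or more, so the order of the members was that of all genes. The promoters of Gclm and Nqo1 are shown as a CpG-rich marked and a CpG-poor unmarked example, with each CG in capitals. Gclm has 48 of them and Nqo1 has 5.
Gclm, chr3:122245307-122245606, plus strand: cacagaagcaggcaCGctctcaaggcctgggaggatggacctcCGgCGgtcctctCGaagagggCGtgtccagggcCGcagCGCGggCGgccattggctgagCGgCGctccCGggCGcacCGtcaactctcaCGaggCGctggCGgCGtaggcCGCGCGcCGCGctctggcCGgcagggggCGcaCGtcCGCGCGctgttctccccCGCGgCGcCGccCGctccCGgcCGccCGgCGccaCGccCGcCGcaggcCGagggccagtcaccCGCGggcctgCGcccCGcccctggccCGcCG
Nqo1, chr8:107403156-107403455, minus strand: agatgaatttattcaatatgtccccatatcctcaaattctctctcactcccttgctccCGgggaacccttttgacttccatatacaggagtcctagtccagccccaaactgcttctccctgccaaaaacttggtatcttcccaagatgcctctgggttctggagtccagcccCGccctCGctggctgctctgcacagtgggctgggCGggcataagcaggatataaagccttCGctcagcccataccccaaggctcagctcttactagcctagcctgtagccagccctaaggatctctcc

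**Figure D3:**
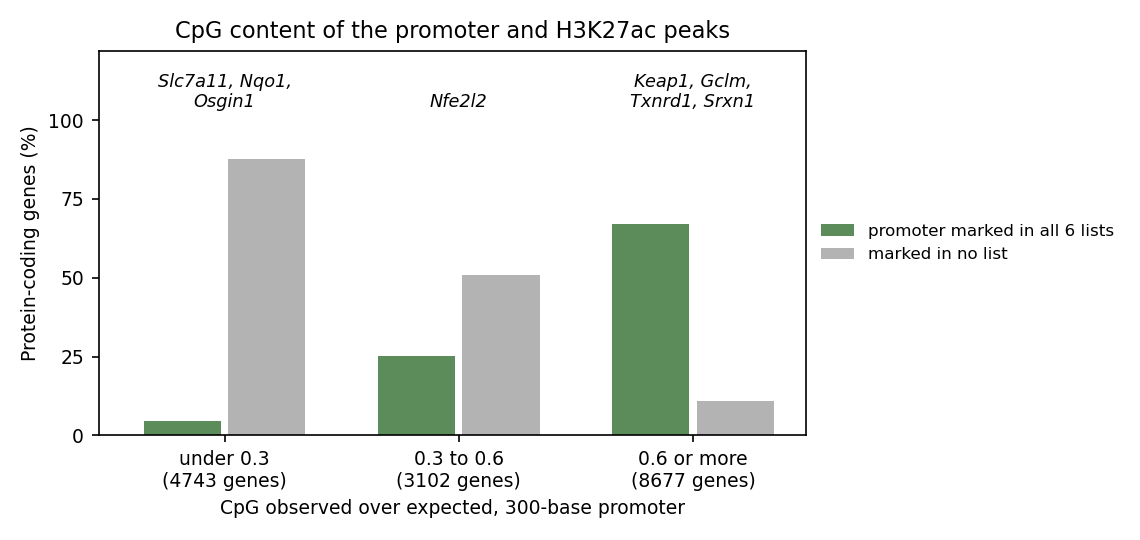
Percentage of protein-coding genes (vertical axis) whose promoter was marked in all 6 lists (green) or in none (grey), by the CpG observed over expected of the 300-base promoter (horizontal axis; the highest value is used for genes with several starts). Members are named above their class: Slc7a11, Nqo1 and Osgin1 fall in the class in which 4.68% of genes were marked in all lists and 87.5% in none.

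The core of the antioxidant response element, TGACNNNGC on either strand, was found in 12.4% of 32851 RefSeq promoters. It was present at Nfe2l2, Srxn1, Gclm and the first internal start of Txnrd1, and its letters were not in the windows of Keap1, Slc7a11, Nqo1 and Osgin1. The matches lay at -240, 28, -134 and -92 bases from the start, respectively, and none was the full TGACTCAGC, which was in 0.454% of promoters. The matches outside Gclm are shown in capitals, each with its flanks, since all 3 are at marked promoters and no match contains the AP-1 site.
Nfe2l2, chr2:75704880-75704913, minus strand: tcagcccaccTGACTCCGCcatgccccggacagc
Srxn1, chr2:152105537-152105573, plus strand: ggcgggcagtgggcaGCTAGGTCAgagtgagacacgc
Txnrd1, chr10:82859099-82859137, plus strand: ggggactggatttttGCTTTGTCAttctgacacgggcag

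Next, the strength of the mark was compared between groups. For genes marked in all 6 lists, the strongest promoter fold was ranked within each list and turned into a normal score, which is 0 for the middle gene. The 4xIOP minus control difference was 0.35 (95% interval -0.48 to 1.17) at Nfe2l2, 0.29 (-0.52 to 1.11) at Keap1, 0.28 (-0.53 to 1.09) at Gclm and 0.23 (-0.54 to 1.00) at Gclc. It was -0.17 (-0.93 to 0.59) at Txnrd1 and -0.28 (-1.15 to 0.59) at Srxn1. The groups overlapped at all 6 genes, compared with 4.25% of the 8669 genes tested where every 4xIOP list was above every control list and 3.93% where every one was below. With limma, 0 of the 8669 genes (0%) passed an adjusted p of 0.05, and 270 (3.11%) had an unadjusted p under 0.05, none of them a member. The adjusted p was 0.99957 for each of the 6 members.

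Promoter coverage, log2 of the covered bp plus 200, was compared in the 10796 genes marked in at least 3 lists, of which 7 were members. The 4xIOP minus control difference of Hmox1 was -1.23 (95% interval -2.11 to -0.36, unadjusted p = 0.0125, adjusted p = 0.708, limma) on a scale that understates changes of lightly covered promoters because of the 200 bp added. Hmox1 passed the filter of 3 lists only through the control group, where it is high (3 control lists and 1 4xIOP list marked), so it had to differ, and the value is a description rather than support for a difference. Every 4xIOP list was below every control list at 5.91% of all genes tested and above at 5.07%. The other 6 members had differences from -0.20 (Keap1) to 0.36 (Srxn1), overlapping groups and adjusted p from 0.936 to 0.994. By limma, 0 of 10796 genes (0%) passed the adjusted threshold and 557 (5.16%) had an unadjusted p under 0.05, Hmox1 among them. With 50 bp added in place of 200, Hmox1 was at -2.37 (adjusted p = 0.906) and 72 genes were called, 23 were called at a −log10 q of at least 5, and 29 without 4xIOP 3. The median difference of all genes was -0.01.

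**Figure D4:**
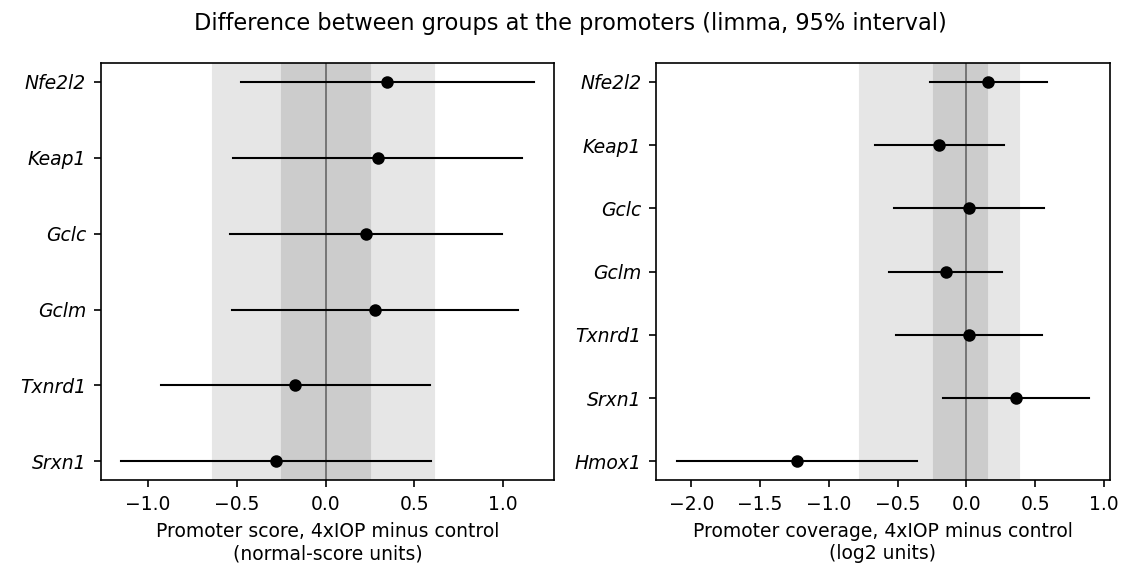
Difference between groups (horizontal axis, 4xIOP minus control) in promoter score (left, normal-score units) and promoter coverage (right, log2 units) for the members tested (vertical axis). Points are limma estimates, lines their 95% intervals, and dark and light bands hold the central 50% and 90% of all genes tested; Hmox1 coverage, at -1.23, is the member outside the light band.

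Of the consensus regions called in all 6 lists, 12 lay in the member loci, 8 at member promoters and 4 at promoters of neighbours. Their score differences ranged from -0.31 to 0.43. With limma, 0 of 10529 regions (0%) passed the adjusted threshold, and 334 (3.17%), none of them in a member locus, had an unadjusted p under 0.05. On simulated data with the spread of these lists, a difference of 1 was recovered at 0 of 200 changed features in each of the 3 comparisons, and a difference of 2 at 142 of 200 for promoter score, 148 for coverage and 145 for regions. In this simulation, a difference of 1 was therefore not called at the adjusted threshold over all features with 3 lists a group. The units were normal scores for scores and regions and log2 for coverage. This limit is that of calls over all features, not of the intervals of single genes.

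Peaks covered 10.7, 8.76 and 16.1 kb of the 10 loci in control and 8.27, 8.45 and 7.90 kb in 4xIOP (11.8 ± 3.80 against 8.21 ± 0.278, SD, n = 3). Each 4xIOP total was below each control total, but the lowest control value exceeded the highest 4xIOP value by less than the spread of the control lists. The whole lists covered 10.8, 8.92 and 20.1 Mb in control and 10.2, 10.4 and 6.66 Mb in 4xIOP, a ratio of means of 0.682, beside 0.693 for the loci. By the carried names the groups overlapped at the loci, with a difference of -1.82 kb. Of the control total, the largest part was in control 3, and without it the difference was -1.52 kb in place of -3.64 kb. With equal numbers of top peaks in every list, the difference was -1.77 kb.

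The position of the strongest promoter peak was shared by the 6 members marked in all lists. At all 6 genes, its summit lay downstream of the nearest TSS in every list, compared with 50.2% of 8669 genes. At Hmox1 it lay upstream in control 1 (-637 bp) and downstream in control 2, control 3 and 4xIOP 2. The mean promoter score of the 6 was -0.38, -0.27 and -0.36 in control and -0.26, -0.20 and -0.20 in 4xIOP, below the middle gene in each list. The genes whose scores followed this mean most closely over the 6 lists were Ugcg (Pearson r = 0.991), Idh3g (0.989) and Ssr4 (0.989). Idh3g and Ssr4 lie at one shared promoter, and 14 of the 8669 genes had an r of at least 0.95. With 6 points that share their depth, this is a description only.

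Among 51 further genes of the NRF2 pathway, 32 (62.7%) were marked in all 6 lists and 7 in none. Per list, 41, 40 and 44 were marked in control and 37, 37 and 38 in 4xIOP, and among all genes the share marked was 48.6, 46.2 and 56.9% in control and 47.4, 45.7 and 44.6% in 4xIOP. By the carried names the counts were 41, 40 and 38 for 4xIOP and 44, 37 and 37 for control, and the groups overlapped. The 5 genes of NRF2 turnover (Cul3, Rbx1, Btrc, Gsk3b, Sqstm1) and the 3 general antioxidant genes (Sod1, Sod2, Cat) were all marked in every list. So were 7 of 8 glutathione genes, 4 of 5 thioredoxin and peroxiredoxin genes, 5 of 6 NADPH genes and 4 of 6 iron and heme genes. Of the partners and rivals of NRF2, Mafg, Bach1 and Nfe2l1 were marked in all lists. Mafk, Maff, Bach2, Blvra, Blvrb and Cbr1 were each missing from 1 4xIOP list, and Gstp1 from 1 control list. The share of all genes missing from a single list was not computed. The gaps of Mafk, Maff, Bach2, Blvra and Blvrb fell in 4xIOP 1 and 2, whose carried names are those of control. Their direction thus turns with the labels. Of the conjugation and detoxification genes, 1 of 12 (Ugdh) was marked in all lists and 6 (Gsta3, Gsta4, Gstm1, Gstm2, Mgst1, Aox1) in none, beside 39.5% and 42.4% of all genes. Akr1b8, an aldo-keto reductase, was marked in all 3 control lists and no 4xIOP list, and was singled out after its values were seen. By the carried names these were 2 lists of 4xIOP and 1 of control. It was the only gene of the 51 marked in all 3 control lists and at most 1 4xIOP list, against 1.42% of all genes.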

How the data were processed

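Each retina was represented by 1 narrowPeak list (3 control, 3 4xIOP, grouped by the labels). Per the labels, the submitters' processing notes name mm10, STAR 2.7.8a, MACS2, HOMER, edgeR and bedtools 2.29.2, without roles. In the deposited lists, fold is the authors' ratio of pile-up to local background, and each peak's −log10 p-value and q-value come from their caller. A deposited integer score was not used. Whole fragments at a summit were recovered from fold and p, with a tolerance of 0.001 in −log10 p, in over 99.9% of the peaks of each list.

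Promoters, loci and annotation were from GENCODE vM21 basic on GRCm38, and overlap was at least 1 bp. Scores and coverage were tested with limma 3.58.1 (R 4.3.3, two-sided, Benjamini-Hochberg over all features). Since labels do not tie eyes to animals, p-values measure the spread between lists; an exact permutation test of 3 against 3 cannot go below 0.1. Motifs were searched on both strands with Python 3.11.15.

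The members, the pathway list and the markers were chosen with earlier results of these data known. Part of the marker list is not reported here. All 10 members are described, with most detail for those not marked in all lists, those whose groups did not overlap, Nfe2l2 and Keap1; the 3 most alike genes were named. Stricter, equal-length, 1 kb, summit-based, left-out-list, replicate-block and fragment-length alternatives were run.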

Additional observations from a re-analysis of the deposited data

How the results depend on the processing

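Of 161 member differences recomputed under the alternatives, 150 kept their sign and 0 passed the adjusted threshold. Gclc was not marked in all 6 lists at a −log10 q of at least 5 or with equal numbers of top peaks. Its coverage difference was 0.528 with equal numbers of top peaks and changed sign with a pseudocount of 50 bp (-0.0202). It ranged from -0.137 to 0.218 with 1 list left out. Txnrd1 coverage then ranged from -0.0795 to 0.181 and the Srxn1 score from -0.552 to 0.0675. Hmox1 coverage stayed negative under all 13 alternatives, from -2.37 (50 bp) to -0.81 (−log10 q of at least 5), with adjusted p from 0.183 to 0.998, and was -1.66 without 4xIOP 2, its only marked 4xIOP list. Its sign could hardly change, since 4xIOP 1 and 3 had 0 bp covered and Hmox1 passed the filter through the control lists. All 13 kept the labelled groups. By the carried names the mean covered length was 354 bp in control and 331 bp in 4xIOP.

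Over all genes, coverage gave 0 calls, but 23 at −log10 q of at least 5, 72 with 50 bp and 0 to 29 with 1 list left out (29 without 4xIOP 3), all lower in 4xIOP. The cause was not tested. Scores and regions gave 0 calls under every alternative. The covered length of the loci differed by -8.19 kb between control 3 and 4xIOP 3 alone.

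Numbers shared by the groups did not pair the lists (correlations of deviations -0.0208, -0.0571 and -0.146). With the replicate block, 0 genes or regions were called in each comparison, and Hmox1 coverage was -1.23 (adjusted p = 0.689).

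The number of marked members differed by -1 to -0.333 with the labelled groups, including TSSs of all annotated transcripts, and by 0 (6.67 against 6.67) with the groups by the name each list carries. Both of these settings were chosen after seeing the data.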
